A study of Mus musculus with 4 samples.

Results

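The small leucine-rich proteoglycans examined here were 10 genes: Dcn (decorin), Lum (lumican), Bgn (biglycan), Ogn (osteoglycin), Aspn (asporin), Fmod (fibromodulin), Omd (osteomodulin), Prelp, Kera (keratocan) and Podn (podocan). They were chosen by name, by a rule that uses no measured value, although earlier results of these data were known. They make up 10 of the 32285 genes in the deposited matrices, and all 10 were found in all 4 libraries. The study sampled digits of 8 week old wild-type FVB/NJ mice by single-cell RNA sequencing, with 1 library from unamputated tissue of the middle phalanx (P2) and 1 library each at 12, 17 and 28 days post-amputation (dpa) through that phalanx, a level at which mouse digits form fibrous tissue and do not regenerate. Animals of both sexes were pooled in each library per the labels, which the sex-linked genes described below went against. Live cells were sorted by propidium iodide exclusion after trypsin and collagenase I digestion, and their RNA was tagged at the 3′ end by 10x Chromium v3 chemistry. Because each group is 1 library, no difference between time points has a replicate check, and no p-value is given.

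Small leucine-rich proteoglycans are secreted proteins with a core of leucine-rich repeats, to most of which chondroitin, dermatan or keratan sulfate chains are attached. They bind fibrillar collagens, regulate the width and spacing of fibrils in tendon, skin, cornea and bone, and bind growth factors such as TGF-β and receptors on the cell surface. The family is sorted by sequence into classes: decorin, biglycan and asporin belong to class I, lumican, fibromodulin, keratocan, osteomodulin and PRELP to class II, osteoglycin to class III and podocan to class V.

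Most of the genes lie in clusters of the family. On mouse GRCm38 (GENCODE M21), Dcn (chr10:97479609-97518143), Lum (chr10:97565128-97572703) and Kera (chr10:97606879-97613692) follow each other on the plus strand with gaps of 47.0 and 34.2 kb and no other protein-coding gene between them. Aspn (chr13:49544443-49567565), Omd (chr13:49582462-49592822) and Ogn (chr13:49608046-49624501) form another plus-strand row with gaps of 14.9 and 15.2 kb. Prelp (chr1:133910304-133921414, minus strand) and Fmod (chr1:134037254-134048277, plus strand) are 115.8 kb apart and transcribed away from each other. Podn (chr4:108014791-108096445, minus strand) and Bgn (chrX:73483602-73495933, plus strand) stand alone, and Bgn is the X-linked member of the set.

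RefSeq promoter windows (GRCm38.p6) were at hand for 8 of the 10 genes, all but Dcn and Lum. The bases upstream of the start are shown for 4 of the genes that were past 2-fold at 28 dpa in a class described below, Ogn (lower in fibroblast-like and tenocyte-like cells), Prelp (higher in both), and Fmod and Omd (higher in tenocyte-like cells). Kera, also past 2-fold at 28 dpa, is not shown because its whole window lies inside the longer GENCODE gene. Each is written 5′ to 3′ on the strand of the gene. Capitals mark whole matches on either strand to the TATA box (TATAAA), the CCAAT box (CCAAT) or a RUNX motif (TGTGGT), where capitals that touch belong to overlapping matches.
Ogn, chr13:49607765-49608014, plus strand: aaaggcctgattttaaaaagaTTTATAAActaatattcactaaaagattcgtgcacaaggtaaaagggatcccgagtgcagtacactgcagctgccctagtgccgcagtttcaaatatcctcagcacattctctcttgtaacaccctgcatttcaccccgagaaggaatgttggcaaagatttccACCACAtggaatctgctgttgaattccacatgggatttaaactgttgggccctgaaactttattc
Prelp, chr1:133921415-133921651, minus strand: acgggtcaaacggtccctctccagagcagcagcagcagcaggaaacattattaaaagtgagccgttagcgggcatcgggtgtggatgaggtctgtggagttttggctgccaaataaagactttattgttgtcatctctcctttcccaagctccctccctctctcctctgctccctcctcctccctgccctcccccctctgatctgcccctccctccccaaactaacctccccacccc
Fmod, chr1:134037004-134037253, plus strand: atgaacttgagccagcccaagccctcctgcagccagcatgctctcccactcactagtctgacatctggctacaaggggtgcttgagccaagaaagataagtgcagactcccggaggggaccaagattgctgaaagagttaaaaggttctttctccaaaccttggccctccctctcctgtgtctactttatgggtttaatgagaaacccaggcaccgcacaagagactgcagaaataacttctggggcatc
Omd, chr13:49582212-49582461, plus strand: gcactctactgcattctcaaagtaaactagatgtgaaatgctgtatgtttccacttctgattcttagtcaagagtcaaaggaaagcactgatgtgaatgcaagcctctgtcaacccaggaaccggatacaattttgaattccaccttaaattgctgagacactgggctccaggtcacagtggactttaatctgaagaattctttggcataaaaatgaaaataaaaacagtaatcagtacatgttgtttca
In the 250 bases upstream, Ogn held 2 overlapping TATAAA matches, beginning 229 and 227 bases before the start, and 1 RUNX match beginning 65 bases before it. Prelp held 1 CCAAT match beginning 15 bases before the RefSeq start. The stretch shown stops inside that match, where the longer GENCODE transcript begins, so its first bases are left in lower case. Fmod and Omd held none of the 3 motifs. Among all 32851 RefSeq windows of this length, 12.4% held TATAAA, 33.8% CCAAT and 14% TGTGGT. An AP-1 motif (TGANTCA, where N is any base) was in 6.75% of all windows and in none of the 8 genes. GC content was 42.0% in the Ogn window, 55.6% in Prelp, 51.2% in Fmod and 38.4% in Omd, against a median of 52.4% over all windows.

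The 4 libraries held 8813 to 16045 barcodes and 92313847 to 197140774 unique molecular identifiers (UMIs, each standing for 1 captured transcript), and 6491 to 10438 cells a library were kept, 35040 in all. The 10 genes took 0.432% of the UMIs of the kept cells in the unamputated library, 0.599% at 12 dpa, 0.847% at 17 dpa and 0.788% at 28 dpa. Levels below are counts per 1000000 UMIs (CPM), with the UMIs of a gene and of all genes summed over the cells of a class in a library. Intervals are exact Poisson 95% intervals and cover counting error only. 3′ counts are not scaled by gene length, so levels are compared between cells and libraries and not between genes. The 12 dpa library stood apart from its label: Xist was at 458.5 CPM there and at most 0.153 CPM in the other 3, and Y-linked genes were at 0.229 CPM there and at 244 CPM or more elsewhere, although all 4 are labelled as pooled sexes. Comparisons with 12 dpa therefore carry a difference in sex that cannot be told apart from time, Bgn being the gene on the X chromosome. Library pairs shared 19 to 87 barcodes, at most 0.570% of a library.

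Cells were grouped into classes by markers that include none of the 10 genes, and the 10 genes were left out of the clustering. Fibroblast-like cells (led by genes such as Clec3b, Pi16 and C4b) numbered 850, 649, 1499 and 2138 in the unamputated, 12, 17 and 28 dpa libraries. Tenocyte-like cells, which resemble tendon fibroblasts (Scx, Tnmd, Thbs4), numbered 479, 1450, 308 and 393. Osteoblast-like cells, which resemble bone-forming cells (Ibsp, Bglap, Alpl), numbered 453, 44, 776 and 556, and the 44 cells at 12 dpa are too few for a class comparison, for which at least 50 cells were required. The fibroblast-like class was made of different clusters at different times. Cluster 15 (Kif26b, Crabp1, Prss35) gave 451 of its 649 cells at 12 dpa and 20 of 2138 at 28 dpa, whereas cluster 16 (Ccn3, Clec3b, Pi16) gave 410 of 850 cells in the unamputated and 1614 of 2138 in the 28 dpa library. Cluster 14 (C4b, Gdf10) gave 222, 18, 466 and 504 cells.

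The genes were concentrated in connective tissue cells. Fibroblast-like, tenocyte-like and osteoblast-like cells together held 74.1% (Podn, unamputated) to 99.7% (Kera, 12 dpa) of the UMIs of a gene in a library. Cluster 18 was left unnamed: 7 fibroblast markers were detected in it, but the fibroblast list was on average not raised over the other cells (mean log2 difference −0.44), and the mast cell list scored higher with under 3 of its markers detected. It held up to 19.1% more (Ogn, 17 dpa). For 8 of the 10 genes, the class with the highest level was one of these 3 in all 4 libraries. The exceptions were Prelp, whose highest level was in lymphatic endothelial-like cells in the unamputated and 12 dpa libraries, and Podn, whose highest level at 28 dpa was in pericyte-like cells, with an interval that overlapped that of fibroblast-like cells. With the cells of all libraries pooled, which gives libraries with more cells of a class more weight, Dcn was highest in fibroblast-like cells (7376 CPM, followed by 3589 CPM in osteoblast-like cells). Lum was highest in osteoblast-like cells (4902 CPM, then 2935 CPM in fibroblast-like cells), as were Ogn (851 CPM, then 455 CPM in tenocyte-like cells) and Omd (248 CPM, then 29.3 CPM in tenocyte-like cells). The place of Ogn depends on the clustering: at a finer one these cells parted into a cluster led by Chad and Igf2, called tenocyte-like by its markers, with Ogn at 2102, 1039 and 1417 CPM in the unamputated, 17 and 28 dpa libraries, and an osteoblast-like cluster led by Ibsp and Bglap with 523, 337 and 246 CPM. Bgn (3806 CPM, then 1908 CPM in fibroblast-like cells), Fmod (1251 CPM, then 841 CPM in osteoblast-like cells) and Kera (41.5 CPM, then 23.4 CPM in fibroblast-like cells) were highest in tenocyte-like cells. Library by library, Kera was instead highest in fibroblast-like cells at 12 dpa (56.2 against 30.7 CPM in tenocyte-like cells), and the intervals of the 2 classes overlapped in the unamputated library. Lum at 12 dpa, when osteoblast-like cells were too few to compare, was highest in fibroblast-like cells (2296 against 2230 CPM in tenocyte-like cells). At 17 and 28 dpa tenocyte-like cells came second for Lum (3389 and 5337 CPM). Pooled Aspn levels were 3478 CPM in fibroblast-like and 3331 CPM in tenocyte-like cells, but tenocyte-like cells held more Aspn in 3 of the 4 libraries, all but 17 dpa. The intervals of pooled Podn overlapped between both classes (49.8 and 48.2 CPM).

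**Figure D1:**
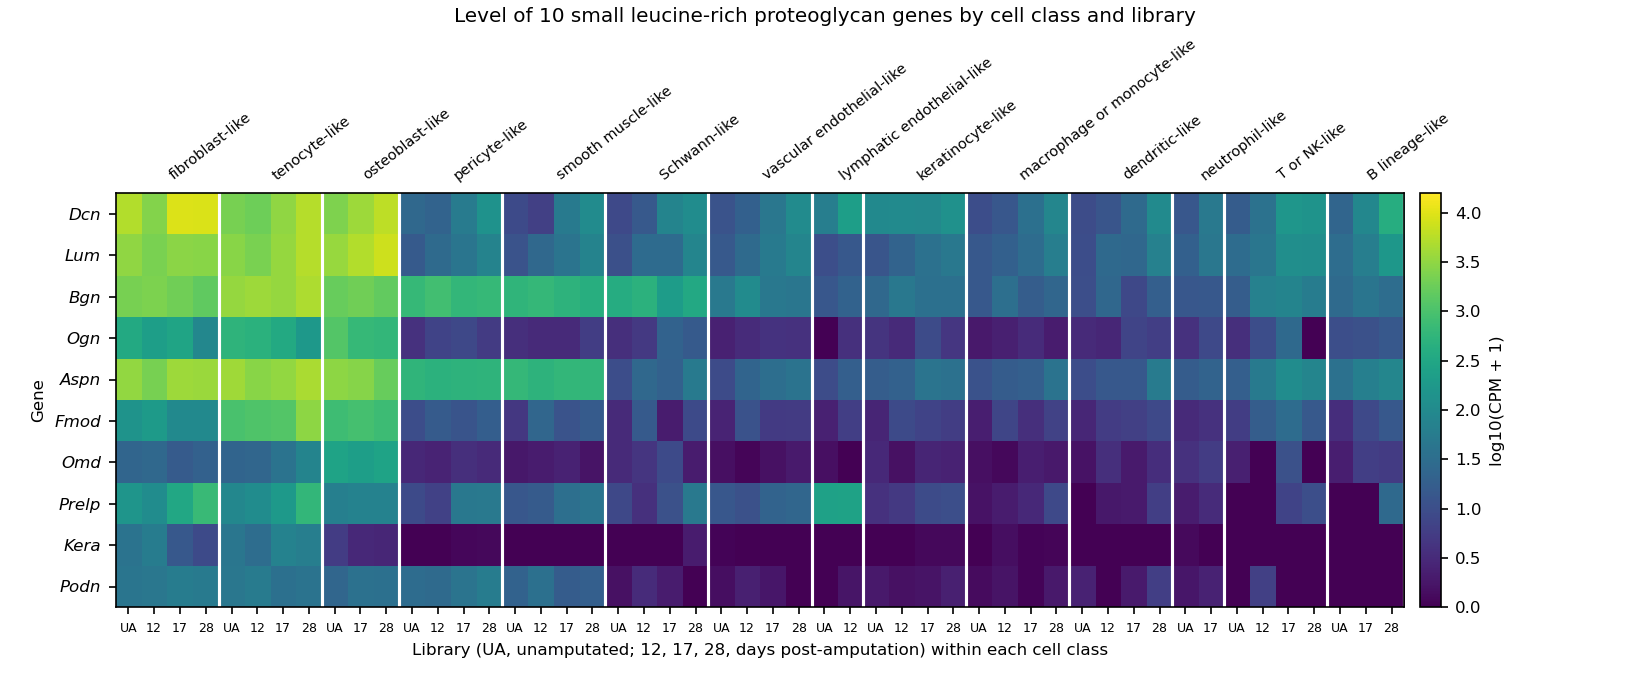
Level of each of the 10 genes (rows) as log10(CPM + 1), in each cell class of at least 50 cells, with the libraries of a class side by side (UA, unamputated; 12, 17 and 28, days post-amputation). The 3 classes on the left are bright for most genes, Bgn and Aspn are also above background in pericyte-like and smooth muscle-like cells, and Prelp is bright in lymphatic endothelial-like cells.

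In fibroblast-like cells, 3 genes stood at least 2-fold apart from the unamputated library at 28 dpa: Prelp was higher, and Ogn and Kera were lower. At 17 dpa, 1 gene was higher (Prelp) and 1 lower (Kera), and at 12 dpa none was past 2-fold in either direction. For background, of the 10773 genes of at least 5 CPM in either library, 1.80% were at least 2-fold higher and 1.87% lower at 12 dpa. At 17 dpa the shares were 0.857% higher and 2.41% lower, and at 28 dpa 3.43% higher and 8.70% lower. The median log2 ratio of the 10 genes was −0.18, −0.15 and −0.17 at 12, 17 and 28 dpa, beside −0.00, −0.04 and −0.13 over all genes tested, and its sign turned under 6, 5 and 6 of 20 alternative settings. Over the 20 alternative settings of the processing, Prelp, Ogn and Kera were past 2-fold at 28 dpa under all 20, whereas Prelp at 17 dpa was past it under 12 and Kera at 17 dpa under 17. Among these 20, the setting with a higher minimum level changes only which genes are tested, so it could not alter a ratio or a median. All ratios are log2 of CPM + 1 over the unamputated library, and the 3 comparisons share that library.

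In tenocyte-like cells no gene was past 2-fold at 12 dpa (background 0.602% higher, 1.17% lower). At 17 dpa 1 gene was higher, Prelp, and none lower (background 1.56% and 1.20%). At 28 dpa 4 genes were higher, Dcn, Fmod, Omd and Prelp, and 1 was lower, Ogn (background 4.15% and 5.74%). This class also changed in its makeup at a finer clustering. From the unamputated to the 28 dpa library, a cluster led by Comp, Hapln1 and Prg4 went from 15 to 321 cells. Clusters led by Col11a1 and Tnmd and by Timp1 and Scx went from 334 to 39 and from 133 to 24 cells. The part of this change in the calls of tenocyte-like cells was not tested. The median log2 ratio of the 10 genes at 28 dpa was 0.72 in tenocyte-like cells, beside −0.08 over all genes tested. In osteoblast-like cells 9 of the genes reached 5 CPM in either library, all but Kera. None of the 9 was past 2-fold at 17 dpa (background 1.56% higher, 2.85% lower). At 28 dpa Dcn and Lum were at least 2-fold higher and none was lower (background 3.05% and 6.92%).

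**Figure D2:**
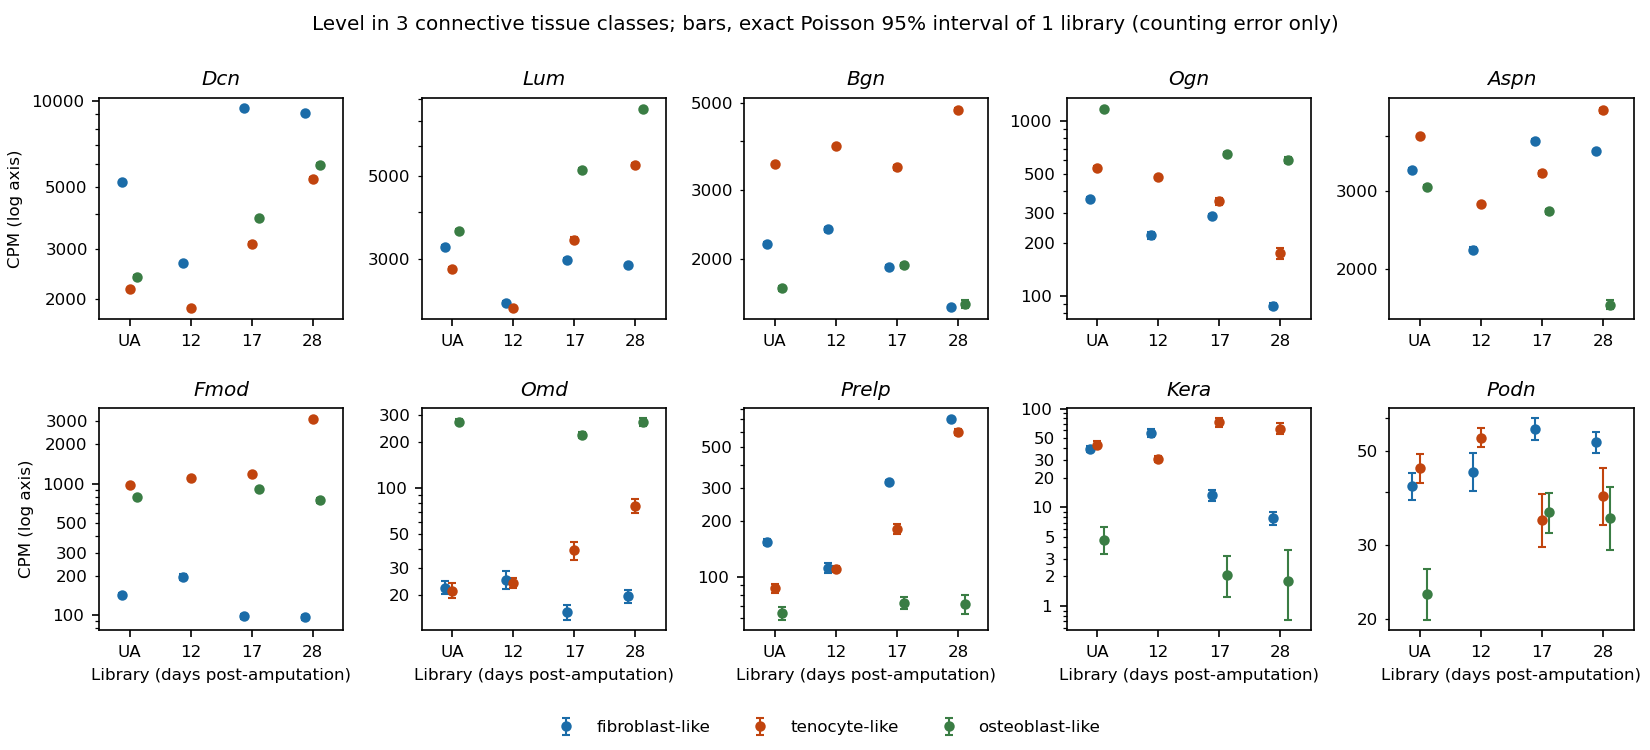
CPM of each gene (log axis, a separate scale for each gene) in fibroblast-like, tenocyte-like and osteoblast-like cells of the 4 libraries (UA, unamputated; 12, 17 and 28, days post-amputation); bars are exact Poisson 95% intervals of a single library, often smaller than the point, and osteoblast-like cells at 12 dpa are left out because there were 44. Prelp is highest at 28 dpa in fibroblast-like and tenocyte-like cells (699.6 and 599 CPM), Ogn is lowest there (87.8 and 175 CPM), and Fmod stands at 3096 CPM in tenocyte-like cells at 28 dpa.

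Of the class I genes, Dcn encodes decorin, which coats collagen fibrils, limits their lateral growth and binds TGF-β. In fibroblast-like cells Dcn was at 5185 CPM in the unamputated library, 2681 at 12 dpa, 9454 at 17 dpa and 9061 at 28 dpa. The level was thus lowest at 12 dpa and highest at the 2 later times, with log2 ratios of −0.95, 0.87 and 0.81, none past 2-fold. In tenocyte-like cells the corresponding Dcn values were 2172, 1861, 3129 and 5325 CPM, and in osteoblast-like cells at 2406, 3872 and 5956 CPM in the unamputated, 17 and 28 dpa libraries. The log2 ratio at 28 dpa was 1.29 (interval 1.26 to 1.33) in tenocyte-like and 1.31 (1.27 to 1.34) in osteoblast-like cells.

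Bgn encodes biglycan, which is close to decorin in sequence, is abundant in bone and tendon and, when released, acts on toll-like receptors. Bgn was at 2187, 2384, 1911 and 1508 CPM in fibroblast-like cells and at 3485, 3892, 3431 and 4797 CPM in tenocyte-like cells of the unamputated, 12, 17 and 28 dpa libraries. Levels at 28 dpa were below the unamputated library in the former (log2 ratio −0.54) and above it in the latter (0.46), neither past 2-fold. Aspn encodes asporin, a class I member without glycosaminoglycan chains that binds collagen and TGF-β. Aspn was at 3350, 2208, 3905 and 3694 CPM in fibroblast-like cells and at 3997, 2798, 3291 and 4577 CPM in tenocyte-like cells, lowest at 12 dpa in both. In osteoblast-like cells Aspn was at 3063, 2697 and 1657 CPM in the unamputated, 17 and 28 dpa libraries, a log2 ratio of −0.89 at 28 dpa.

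Among the class II genes, Lum encodes lumican, a keratan sulfate proteoglycan of cornea, skin and bone that shares a collagen binding site with fibromodulin. Lum varied little in fibroblast-like cells, at 3241, 2296, 2994 and 2894 CPM. In osteoblast-like cells it was at 3578, 5188 and 7506 CPM in the unamputated, 17 and 28 dpa libraries, 2.10-fold higher at 28 dpa (log2 ratio 1.07, interval 1.04 to 1.10), while the osteoblast markers summed to 5102, 11826 and 17194 CPM in the same cells. From the unamputated to the 28 dpa library, the tenocyte markers there went from 854.5 to 2345 CPM, the joint lining markers from 66.5 to 225 CPM and the keratinocyte markers from 119 to 458 CPM, and the part of these lists in the differences of Lum and Dcn was not tested. In tenocyte-like cells Lum was at 2832, 2230, 3389 and 5337 CPM, a log2 ratio of 0.91 at 28 dpa that does not reach 2-fold.

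Fmod encodes fibromodulin, which supports the assembly of collagen fibrils in tendon. In tenocyte-like cells Fmod was at 986, 1108, 1182 and 3096 CPM, so that the 28 dpa library stood alone above the other 3, at 3.14-fold the unamputated level (log2 ratio 1.65, interval 1.60 to 1.70). In fibroblast-like cells it was at 142, 196, 98.5 and 96.3 CPM, lower at the 2 later times than in the other libraries (log2 ratio −0.56 at 28 dpa, interval −0.68 to −0.44). That direction turned under 4 of the 20 alternative settings, and the ratio ranged from −1.33 to 0.14. In osteoblast-like cells it was at 787, 913 and 747 CPM and differed little. The tenocyte-like cells at 28 dpa also carried more of the tenocyte markers (3853 CPM summed, against 1176 CPM in the unamputated library) and of the joint lining markers (620.0 against 128 CPM). The chondrocyte, pericyte and keratinocyte markers were higher too (717.5, 261 and 345 against 414.5, 103 and 119 CPM). Smooth muscle markers were lower (169 against 722 CPM). The part of these lists in the differences of the 10 genes in tenocyte-like cells was not tested. At a finer clustering, a cluster led by Comp, Hapln1 and Prg4 held 15, 173, 74 and 321 cells. In the finer tenocyte-like cluster led by Col11a1 and Tnmd, with 334, 545, 85 and 39 cells, the last below the 50 required of a class, Fmod was at 1056, 1244, 1938 and 2934 CPM (log2 ratio 1.47 at 28 dpa), and Prelp at 99.2, 148, 246 and 472 CPM (2.24).

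Prelp encodes a class II member with a basic amino-terminal region that binds heparan sulfate, found in cartilage and basement membranes. In fibroblast-like cells Prelp was at 154 CPM in the unamputated library, 111 at 12 dpa, 323 at 17 dpa and 699.6 at 28 dpa, 4.52-fold higher at the last time (log2 ratio 2.17, interval 2.10 to 2.25, from 2632 and 15529 UMIs). Markers of other cell types also differed in these cells between the unamputated and the 28 dpa library. The 6 joint lining markers, none at 0, summed to 331.5 and 781 CPM (494 and 871 CPM in cluster 16), the 7 pericyte markers to 64.6 and 121.5 CPM and the 10 keratinocyte markers to 125.0 and 377 CPM. Those of osteoblasts were lower, at 83.8 and 35.4 CPM for 9 markers (58.2 and 29.5 CPM in cluster 16), as were those of chondrocytes, at 57.98 and 25.7 CPM for 9 markers, 2 of them at 0. The part of these lists in the differences of Prelp, Ogn and Kera in fibroblast-like cells was not tested. In tenocyte-like cells it was at 86.9, 109.7, 182 and 599 CPM, 6.83-fold higher at 28 dpa (log2 ratio 2.77, interval 2.63 to 2.91). The order of the libraries was nearly the same in both classes, with 28 dpa highest, 17 dpa next and the other 2 lowest. Osteoblast-like cells differed from this, at 63.8, 72.5 and 71.4 CPM in the unamputated, 17 and 28 dpa libraries. In macrophage-like cells, used here as a measure of free RNA, Prelp was at 0.611, 1.12, 2.04 and 7.47 CPM in the same libraries.

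Kera encodes keratocan, a keratan sulfate proteoglycan best known from the cornea. In fibroblast-like cells Kera was at 38.9, 56.2, 13.2 and 7.75 CPM, from 664, 477, 254 and 172 UMIs, and lower at both later times (log2 ratio −1.49 at 17 dpa and −2.19 at 28 dpa, interval −2.49 to −1.89). In tenocyte-like cells it was at 43.1, 30.7, 72.5 and 62.6 CPM, higher at the 2 later times (log2 ratios 0.74 and 0.53), and the order of the libraries was therefore not shared by the 2 classes. Osteoblast-like cells held 4.64 CPM or less in the 3 libraries with at least 50 of them (the 44 cells at 12 dpa held 14 UMIs, 23.7 CPM), and no other class of at least 50 cells held Kera above 1.12 CPM. Omd encodes osteomodulin, which binds collagen and hydroxyapatite in bone. In osteoblast-like cells Omd was at 272, 224 and 271 CPM in the unamputated, 17 and 28 dpa libraries. In tenocyte-like cells it was at 21.2, 23.8, 38.9 and 76.6 CPM, 3.49-fold higher at 28 dpa (log2 ratio 1.80, interval 1.48 to 2.12), and in fibroblast-like cells at 22.2, 25.1, 15.3 and 19.5 CPM.

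Ogn, of class III, encodes osteoglycin (mimecan), which is found in bone and in many fibrous tissues and takes part in fibril assembly. Ogn was lower at 28 dpa than in the unamputated library in each of the 3 connective tissue classes. In fibroblast-like cells it was at 359.8, 223, 286 and 87.8 CPM, 0.246-fold at 28 dpa (log2 ratio −2.02, interval −2.12 to −1.92, from 6143 and 1949 UMIs). In tenocyte-like cells it was at 539.7, 478, 349 and 175 CPM (log2 ratio −1.62, interval −1.75 to −1.48). In osteoblast-like cells it was at 1179, 649 and 604 CPM in the unamputated, 17 and 28 dpa libraries (log2 ratio −0.96, interval −1.05 to −0.88), which is short of 2-fold. Podn, of class V, encodes podocan, known as an inhibitor of smooth muscle cell growth. Podn was at 41.3, 44.7, 56.4 and 52.5 CPM in fibroblast-like and at 45.6, 53.8, 34.5 and 39.1 CPM in tenocyte-like cells, and no difference was past 2-fold.

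Within cluster 16, 1 gene was at least 2-fold higher (Prelp) and 2 lower (Ogn and Kera) at 28 dpa, where 2.94% of all genes tested were higher and 6.20% lower. At 17 dpa none was past 2-fold there (background 0.700% and 1.14%), and at 12 dpa 2 were lower and none higher (background 3.01% and 1.07%). Within cluster 14, 1 gene was higher (Podn) and 2 lower (Kera and Fmod) at 28 dpa (background 3.06% and 8.86%), and as many at 17 dpa (background 1.30% and 4.71%). In clusters 14, 16 and 18 the direction of Ogn and Prelp at 28 dpa was the same as in the fibroblast-like class, but the size of the difference was not alike between them. In cluster 16, which holds most fibroblast-like cells at 28 dpa, Ogn was at 331 CPM in the unamputated library, 139 at 12 dpa, 312 at 17 dpa and 53.5 at 28 dpa (log2 ratio −2.61, interval −2.75 to −2.47). In cluster 14 Ogn was at 394, 239.8 and 256 CPM in the unamputated, 17 and 28 dpa libraries (log2 ratio −0.62 at 28 dpa), and in the unnamed cluster 18 (Itih5, Foxd1, Gpc3) at 576, 772 and 431 CPM (−0.42). At a finer clustering the direction of Ogn was not the same throughout, since an unnamed cluster led by Apod, Cldn1 and Foxd1 held 62.2 CPM in the unamputated and 89.9 CPM in the 28 dpa library, from 77 and 141 UMIs. Of the 1949 Ogn UMIs of the fibroblast-like class at 28 dpa, 980 were in the 1614 cells of cluster 16 and 967 in the 504 cells of cluster 14.

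Prelp was at 214, 275, 390.3 and 809.5 CPM in cluster 16 (log2 ratio 1.91 at 28 dpa). In cluster 14 it was at 134, 203 and 179 CPM in the unamputated, 17 and 28 dpa libraries (log2 ratio 0.41), and in cluster 18 at 211, 333 and 279.8 CPM. Prelp at 12 dpa was below the unamputated library in the whole class (log2 ratio −0.47) and above it in cluster 16 (0.36), the class at 12 dpa being made mostly of cluster 15, where Prelp was at 39.5 CPM. Kera was lower at 28 dpa in cluster 16 (30.02 and 9.06 CPM, log2 ratio −1.62) and in cluster 14 (27.4 and 1.59 CPM, from 106 and 6 UMIs, log2 ratio −3.46). It was at 67.3, 67.4 and 50.3 CPM in cluster 15 in the unamputated, 12 and 17 dpa libraries.

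Dcn in cluster 14 was at 8600, 13625 and 16490 CPM in the unamputated, 17 and 28 dpa libraries, and in cluster 16 at 5190, 4887, 8004 and 7555 CPM. At 12 dpa the log2 ratio of Dcn was −0.95 in the class and −0.09 within cluster 16. Podn in cluster 14 was at 42.1, 85.3 and 89.9 CPM (log2 ratio 1.08 at 28 dpa). Fmod in cluster 14 was at 112, 43.1 and 42.6 CPM (log2 ratio −1.37) and in cluster 16 at 116, 131, 123 and 107 CPM (−0.12). The 2 genes that were 2-fold lower in cluster 16 at 12 dpa were Ogn (log2 ratio −1.25) and Aspn (4164 and 2080 CPM).

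**Figure D3:**
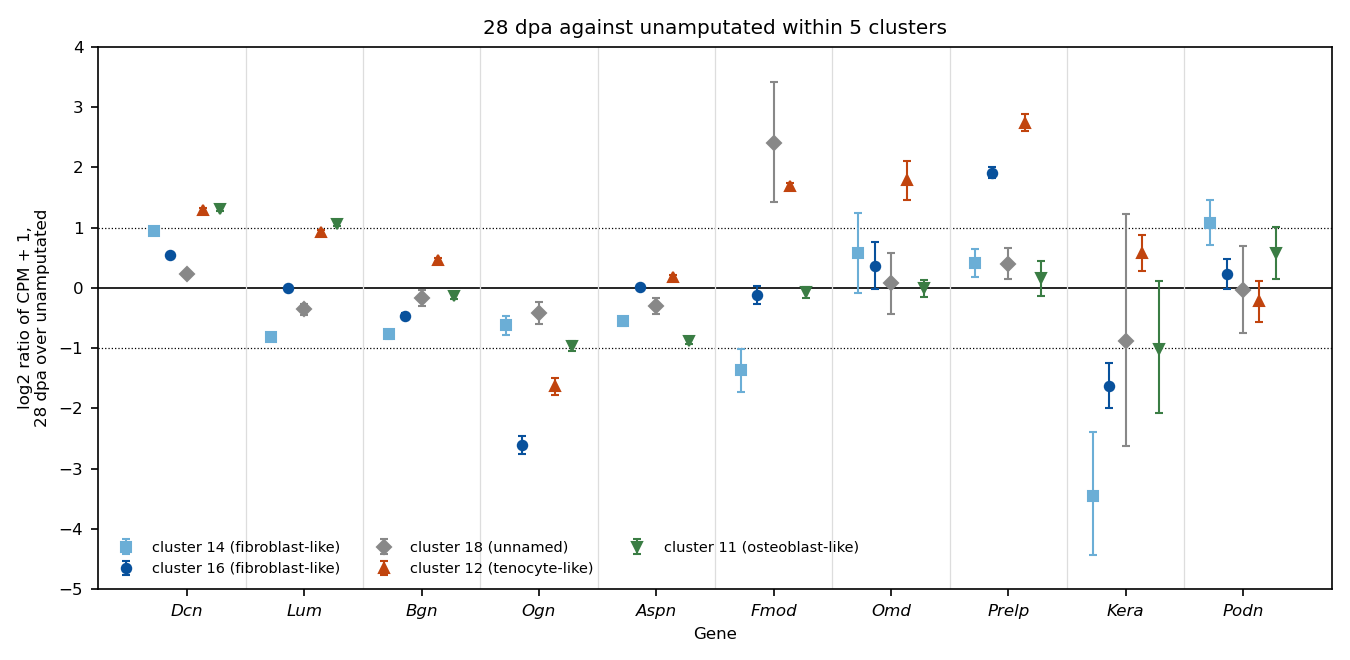
Log2 ratio of CPM + 1 at 28 dpa over the unamputated library for each gene within 5 clusters (14 and 16 fibroblast-like, 18 unnamed, 12 tenocyte-like, 11 osteoblast-like); bars are 95% counting intervals and dotted lines mark 2-fold. Ogn lies below 0 in all 5 clusters, from −2.61 to −0.42, Prelp is past 2-fold in clusters 16 and 12 but not in the other 3, and Kera is on opposite sides of 0 in clusters 16 and 12.

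To ask how many cells carried each gene, each cell was thinned to 2000 UMIs so that libraries of different depth could be compared. The cells that entered had median depths of 19537, 12244, 12456 and 9266 UMIs among fibroblast-like and 10711, 8595, 9083 and 7388 UMIs among macrophage-like cells, and 101 fibroblast-like cells were too shallow and left out. Among fibroblast-like cells, at least 1 UMI of Dcn, Lum, Bgn and Aspn was found in 75.9% to 98.4% of cells in each library. Prelp was found in 20.98% of fibroblast-like cells in the unamputated library, 14.6% at 12 dpa, 36.4% at 17 dpa and 52.9% at 28 dpa. Macrophage-like cells, the measure of free RNA, had Prelp in at most 1.55% of cells in any library. The design had named keratinocyte-like, T or NK-like and neutrophil-like cells for this measure, and macrophage-like cells were put in their place after the data had been seen. In the classes first named, Prelp was found in at most 1.73% of keratinocyte-like, 0.98% of T or NK-like and 0.962% of neutrophil-like cells of a library. Without thinning, the Prelp shares in fibroblast-like cells were 64.5%, 38.5%, 74.98% and 81.2%. Ogn was found in 34.7%, 23.7%, 28.7% and 13.2% of fibroblast-like cells in the 4 libraries, against at most 0.418% of macrophage-like and 0.98% of T or NK-like cells, and without thinning in 69.9%, 51.2%, 54.97% and 28.5%. Fewer fibroblast-like cells therefore held an Ogn UMI at 28 dpa, and more held a Prelp UMI, at equal depth.

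The UMIs read here as free RNA were not equal between libraries, and their source was not tested. Dcn was found in 2.41%, 3.62%, 7.83% and 16.6% of thinned macrophage-like cells in the unamputated, 12, 17 and 28 dpa libraries, and Lum in 2.17%, 2.99%, 6.37% and 13.8%. In keratinocyte-like cells Dcn was found in 6.45%, 7.74%, 11.8% and 18.8%. The Dcn share in T or NK-like cells reached 22.4% at 28 dpa, among 58 cells. The rise of Dcn from the unamputated to the 28 dpa library was thus seen in each of these 3 classes, and the share in macrophage-like cells was the lowest of the 3 in each library. The macrophage-like class changed in its clusters, cluster 2 (Ms4a7, C1qa) giving 715, 414, 334 and 104 cells and cluster 24 (F13a1, Lyve1) 93, 39, 574 and 1652. Within cluster 2 Dcn was at 8.91, 13.8, 38.6 and 90.5 CPM and within cluster 24 at 9.35, 14.5, 34.85 and 84.2 CPM, so that the rise was as large within each cluster as in the class. Kera in fibroblast-like cells was found in 4.77%, 7.08%, 2.04% and 0.957% of cells, and Omd in 2.65% to 4.403%, so that most cells at this depth showed neither. In tenocyte-like cells Fmod was found in 70.6%, 72.6%, 69.8% and 91.0% of cells, and Prelp in 14.1%, 18.4%, 25.2% and 58.1%. In osteoblast-like cells Omd was found in 29.5%, 25.6% and 33.9% of cells of the unamputated, 17 and 28 dpa libraries. The genes were often found together: a thinned fibroblast-like cell held UMIs of a median of 5 of the 10 genes in the unamputated, 17 and 28 dpa libraries and of 4 at 12 dpa, and a tenocyte-like cell of 5, 5, 5 and 6.

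**Figure D4:**
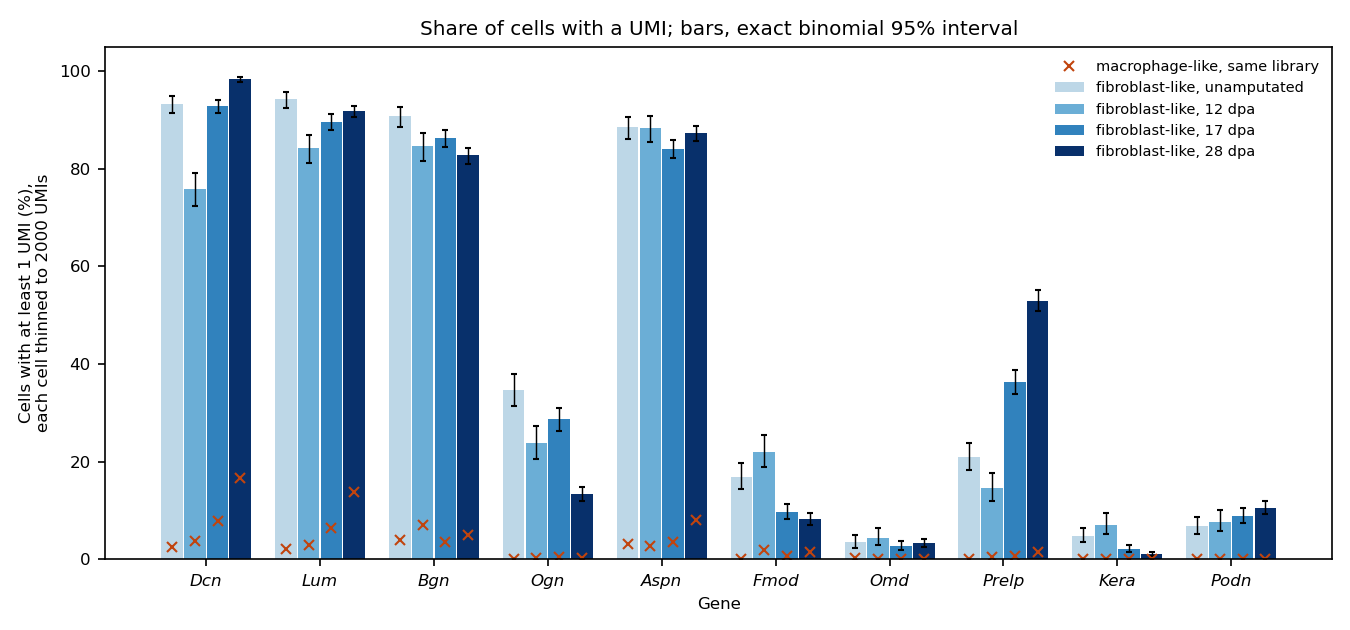
Share of fibroblast-like cells with at least 1 UMI of each gene in the 4 libraries, each cell thinned to 2000 UMIs; bars carry exact binomial 95% intervals, and crosses give the share in macrophage-like cells of the same library as the level of free RNA. The Prelp share is highest at 28 dpa (52.9%), the Ogn share lowest there (13.2%), and the Dcn, Lum, Bgn and Aspn shares are above 75% in each library.

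Outside the connective tissue classes, Bgn and Aspn were found in mural cells. In pericyte-like cells, which wrap capillaries, Bgn was at 659, 842, 602 and 641 CPM and Aspn at 551, 490.1, 516 and 532 CPM in the unamputated, 12, 17 and 28 dpa libraries. Dcn and Lum in the same cells were at most 136 and 75.2 CPM. Smooth muscle-like cells held Bgn at 429 to 632 CPM and Aspn at 524 to 629 CPM. Bgn, and not Aspn, was also found in Schwann-like cells, at 396, 489.5, 211 and 342 CPM, with Aspn at most 50.3 CPM there. At equal depth 61.5% to 64.7% of pericyte-like cells held a Bgn UMI, against 3.55% to 7.04% of macrophage-like and 2.27% to 13.8% of T or NK-like cells. Podn in pericyte-like cells was at 30 CPM in the unamputated library (330 UMIs), 27.8 at 12 dpa, 41.1 at 17 dpa and 58.1 at 28 dpa.

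Several of the genes with low levels in mural cells were higher there at the later times. In pericyte-like cells none of the 8 genes of at least 5 CPM was past 2-fold at 12 dpa (background 1.82% higher, 2.03% lower). At 17 dpa 4 of 8 were higher, Dcn, Lum, Ogn and Prelp, and none lower (background 0.943% and 0.723%), and at 28 dpa 3 of 7 were higher, Dcn, Lum and Prelp, and none lower (background 2.04% and 3.29%). Ogn was not among the 7 genes tested at 28 dpa, so it was below 5 CPM in the unamputated library. It was tested at 17 dpa only through the library in which it was high, and its call carries no weight. In smooth muscle-like cells 2 of 7 were higher at 12 dpa, Lum and Fmod (background 2.66% higher, 4.65% lower). There 4 of 7, Dcn, Lum, Fmod and Prelp, were higher at 17 dpa (background 1.36% and 1.93%) and at 28 dpa (background 2.40% and 5.55%), and none was lower at any time. Dcn was at 24.9, 20.8, 54.95 and 136 CPM in pericyte-like and at 7.82, 5.29, 52.1 and 105.4 CPM in smooth muscle-like cells. In macrophage-like cells, the measure of free RNA, Dcn was also higher at the later times, at 8.85, 12.8, 34.7 and 84.4 CPM, and the part of free RNA in these differences was not tested.

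Prelp had a second site in lymphatic endothelial-like cells (Prox1, Ccl21a, Mmrn1), at 256 CPM in the unamputated and 263 CPM at 12 dpa. These cells numbered 151 and 157, and 35 and 38 at 17 and 28 dpa, where no level is given for want of cells. Vascular endothelial-like cells held Prelp at 9.90 to 23.6 CPM. In pericyte-like cells Prelp was at 7.73, 5.59, 47.9 and 48.1 CPM, a difference between the later and the earlier libraries in the same direction as in fibroblast-like cells. At equal depth the share of pericyte-like cells with a Prelp UMI was 1.54%, 1.26%, 7.31% and 8.85%, against at most 1.55% of macrophage-like and 1.73% of keratinocyte-like cells.

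Likeness over 50 points, each the log2 level of a class in a library, was computed for 12171 genes; the points share libraries and depths, and the correlations are descriptions. The genes most like Bgn were Col6a1 (r = 0.98), Pcolce (0.97) and Col5a1 (0.97). Those most like Aspn were Lox (0.97), Twist1 (0.96) and Lrrc17 (0.96), those most like Lum were Comp (0.96), Prrx2 and Itgbl1 (both 0.94), and those most like Dcn were Lum (0.94), Igfbp6 (0.93) and Comp (0.91). Fmod was most like Ecrg4 (0.95), Itgbl1 (0.94) and Galnt5 (0.93), and Ogn most like Galnt5, Itgbl1 and Lum (each 0.93). Omd was most like its neighbour Ogn (0.92), Galr2 (0.92) and Galnt5 (0.92). Kera was most like AW551984 (0.94), Aqp2 (0.93) and Gm17455 (0.93), Podn most like Tbx15 (0.94), Prrx1 (0.94) and Tbx18 (0.94), and Prelp, with the loosest match, most like Nbl1 (0.89), Fhl1 (0.88) and Wnt9a (0.86).

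Neighbours on a chromosome were among the pairs most alike over all classes in some cases and not in others. Over the 50 points, which mostly separate connective tissue from other cells, Dcn and Lum had r = 0.94, the highest of all pairs among the 10 genes, Lum and Kera 0.84, Omd and Ogn 0.92, Aspn and Omd 0.73 and Prelp and Fmod 0.65, whereas genes that are not neighbours reached 0.93 (Lum and Fmod) and 0.91 (Aspn and Podn). Over 21 points, each a cluster of the 3 connective tissue classes or cluster 18 in a library, r was 0.16 for Dcn and Lum, 0.10 for Lum and Kera, −0.05 for Aspn and Omd and −0.28 for Prelp and Fmod. Omd and Ogn differed from these pairs, with r = 0.70. Dcn and Kera, the outer genes of their row, had r = −0.57. Bgn and Fmod, on different chromosomes, had r = 0.80 there, and Dcn and Prelp 0.70.

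The other genes of the pathway were described in fibroblast-like cells from lists that hold none of the 10. Of 12 fibrillar and fibril-associated collagens, all were tested, and at 28 dpa 5 were at least 2-fold lower and none higher, where 8.70% of all genes were lower, with a median log2 ratio of −0.95 beside −0.13 over all genes. Col11a1 (266 and 28.3 CPM, log2 ratio −3.19) and Col12a1 (1113 and 254 CPM, −2.13) had the lowest ratios, and Col14a1 (612 and 429 CPM, −0.51) and Col6a1 (2055 and 1376 CPM, −0.58) the highest. At 12 dpa 1 collagen was 2-fold higher, Col11a1 (560 CPM, log2 ratio 1.07), where 1.80% of all genes were higher. At 17 dpa Col12a1 (log2 ratio −1.80) and Col11a1 (−1.45) were lower, where 2.41% of all genes were lower. The other 3 that were lower at 28 dpa were Col1a1 (19656 and 7050 CPM), Col5a3 and Col6a3, named after their values were seen. Within cluster 16 no collagen was past 2-fold at 12 dpa, 1 was lower at 17 dpa and 3 were lower at 28 dpa, with Col11a1 and Col5a3 lowest and a median log2 ratio of −0.87, beside shares of 1.14% and 6.20% lower at the later times and a median of −0.11 over all genes there. At 17 dpa Col5a3 and Col6a3 had the lowest ratios in cluster 16. None of the class calls of Col11a1 at 12 dpa and of Col12a1 and Col11a1 at 17 dpa was thus met within that cluster, and the class differed between libraries in its clusters. The collagen levels at 28 dpa thus lay below the unamputated library. So did Bgn, Fmod, Ogn and Kera and, by little, Lum and Omd (log2 ratios −0.16 and −0.18). Dcn (log2 ratio 0.81), Aspn, Podn and Prelp lay above it, of which only Prelp was past 2-fold.

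Of 20 genes for the glycosaminoglycan linker and for chondroitin or dermatan sulfate, 19 were tested. The counts of lower genes at 28 dpa in this and the other lists stand beside the 8.70% over all genes in fibroblast-like cells and 6.20% in cluster 16. At 12 dpa the shares were 1.80% higher and 1.87% lower in fibroblast-like cells and 1.07% and 3.01% in cluster 16. At 17 dpa they were 0.857% and 2.41% in fibroblast-like cells and 0.700% and 1.14% in cluster 16. None of the 19 was past 2-fold at 12 or 17 dpa, and at 28 dpa 3 were lower and none higher, Chsy3 (157 and 66.3 CPM, log2 ratio −1.23) and Chsy1 (74.5 and 32.5 CPM, −1.17), which build the chondroitin chain, having the lowest ratios. The third was Csgalnact1 (136 and 61.5 CPM), named after its values were seen. Within cluster 16 none of the 19 was past 2-fold at any time, so that none of these 3 calls was met there. Of 8 genes for keratan sulfate, 4 were tested, with none past 2-fold at 12 or 17 dpa and 1 lower at 28 dpa, Chst2 (17.1 and 4.10 CPM), a sulfotransferase named after its values were seen. Of 10 proteases known to cut these proteins or their precursors, 9 were tested, and at 28 dpa 4 were lower and none higher, with Tll1 (28.4 and 3.33 CPM, log2 ratio −2.76) and Adamts4 (24.1 and 6.22 CPM, −1.80) lowest. The other 2 were Mmp13 and Mmp14 (1102 and 483 CPM), named after their values were seen. Mmp13, a collagenase, was higher at 12 dpa (34.5 and 197 CPM, log2 ratio 2.48), when Adamts1 was lower (−1.07), and at 17 dpa Mmp13 (−1.29) and Tll1 (−1.17) were lower. Within cluster 16 no protease was higher at 12 dpa, 1 was lower at that time (Adamts1), none was past 2-fold at 17 dpa, and 3 were lower at 28 dpa, with Adamts1 and Mmp14 lowest. Of 14 receptors and growth factors bound by the family, 12 were tested at 28 dpa, with 1 lower (Tgfb3, 102 and 44.7 CPM, log2 ratio −1.18) and none higher. Ccn2, which encodes a matricellular protein, was 2-fold lower at 12 dpa (176 and 83.1 CPM). Neither call was met within cluster 16, where none of the 12 tested was past 2-fold at any time. Of 8 further family members, 5 were tested. Ecm2, the neighbour of Aspn, was at 291, 149, 422 and 393 CPM and past 2-fold at no time, and the 1 gene of that list that was 2-fold lower at 12 dpa was Epyc (7.20 and 2.83 CPM), named here after its values were seen. Within cluster 16, 4 were tested and none was past 2-fold at any time.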

How the data were processed

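Per the submitters' processing notes, the authors aligned and counted reads with Cell Ranger 7.1.0 on mm10, and the deposited matrices hold whole-number UMI counts per gene and cell, not normalized, per the file headers. Barcodes below 500 genes or 1000 UMIs, or above 10% mitochondrial UMIs, were left out, as were those ranked highest by Scrublet (doublets, 0.8% per 1000 barcodes). The libraries were clustered together in scanpy 1.11.5 (scaling to 10000 UMIs, 2000 variable genes, 30 components, 15 neighbours, Leiden resolution 1) without the 10 genes, the gene lists, mitochondrial and sex-linked marker genes. A cluster was named when at least 3 markers of a class were each in at least 25% of its cells and were raised over other cells, unless its 10 leading genes held more of another class; names mean marker-like cells. This naming rule was written after clusters had been seen.

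Counts were summed per class and library and given as CPM with exact Poisson 95% intervals. Ratios used a pseudocount of 1 CPM, and a gene was called at 2-fold among genes of at least 5 CPM in either library. Shares of cells carry exact Clopper-Pearson 95% intervals. Free RNA was read from macrophage-like cells, a class chosen after the data had been seen in place of the 3 classes named in the design. The call rule was also run on counts simulated from the unamputated fibroblast-like cells with counting error only. Such a run cannot show whether a call would hold between animals or libraries. All 10 genes were named. List genes were named by the 2 highest and 2 lowest ratios among genes of at least 20 CPM, and likeness by the 3 highest Pearson r. The genes and lists were chosen with earlier results of these data known. Of the 32285 gene IDs, 32158 were in GENCODE M21.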

Additional observations from a re-analysis of the deposited data

Results flagged for a closer look

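Kera stood on opposite sides of the unamputated library in 2 classes of the same libraries. Its log2 ratio was −1.49 in fibroblast-like and 0.74 in tenocyte-like cells at 17 dpa, and −2.19 and 0.53 at 28 dpa, each with a counting interval clear of 0. Within fibroblast-like cells Kera was also on opposite sides at different times, at 0.52 at 12 dpa and at −1.49 and −2.19 at 17 and 28 dpa. Within its clusters Kera was nearly level from the unamputated library to 12 dpa, at 67.3 and 67.4 CPM in cluster 15 and 30.02 and 33.8 CPM in cluster 16, and cluster 15, with the higher level, gave 451 of the 649 cells at 12 dpa. The ratio at 12 dpa went down to 0.04 under the alternative settings. Fmod stood on opposite sides at 28 dpa, with a log2 ratio of −0.56 in fibroblast-like and 1.65 in tenocyte-like cells, but the former ranged from −1.33 to 0.14 and turned under 4 of 20 alternative settings. These differences between classes and between times were not tested, since each group is 1 library, and the number of pairs in which counting intervals lie on opposite sides of 0 was not compared with other genes.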

How the results depend on the processing

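Of the planned and added alternatives, 20 were run for the results in fibroblast-like cells, 5 of them chosen after seeing the data (cluster 16 alone, without cluster 15, cluster 18 added, each cluster named by its best class, and collagens left out of the total). No direction of a called gene was reversed. At 28 dpa the log2 ratio lay between −3.18 and −1.58 for Ogn, 1.87 and 2.44 for Prelp and −3.17 and −1.10 for Kera. The count of genes at least 2-fold lower at 12 dpa was 1 in place of 0 under a looser and a stricter cell filter, Leiden resolution 0.5, pooled connective tissue classes, the mean of per-cell CPM and without cluster 15, and 2 in cluster 16 alone. The count higher at 12 dpa was 1 in place of 0 when each cell was named alone. At 17 dpa the count lower was 0 in place of 1 with pooled connective tissue classes and in cluster 16 alone. The count higher was 0 in place of 1 under a looser and a stricter filter, with no doublets removed, Leiden resolution 0.5, a fixed cluster mix, the mean of per-cell CPM, cluster 16 alone and without cluster 15. At 28 dpa the count higher was 2 in place of 1 with pooled classes and with a fixed cluster mix. The count lower at 28 dpa was 3 in place of 2 when each cell was named alone, which added Fmod (log2 ratio −1.33). The Fmod ratio at 28 dpa, −0.56, turned to 0.02 under a looser and 0.14 under a stricter filter, 0.08 at Leiden resolution 0.5 and 0.05 with pooled classes. The cause was not tested for these. The median over the 10 genes changed sign under 6, 5 and 6 alternatives at 12, 17 and 28 dpa. No paired analysis was possible because each group is 1 library. Depth limits the genes with few UMIs: at 28 dpa Kera in fibroblast-like cells rests on 172 UMIs.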

Other observations

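At a finer clustering, an unnamed cluster held high Ogn and low Lum. Fibroblast markers were detected in it but were on average below the other cells (mean log2 difference −1.09), so that it is not called fibroblast-like. It numbered 61, 0, 192 and 104 cells in the unamputated, 12, 17 and 28 dpa libraries and was led by Fgl2, Itih5 and Hcn4. Ogn was at 1290, 1577 and 1173 CPM in its unamputated, 17 and 28 dpa cells, and Dcn at 5457, 8288 and 6009 CPM, whereas Lum was at 181, 140.5 and 308 CPM. No Kera UMI was seen in its 357 cells, which allows a level of up to 0.871 CPM. Another unnamed cluster, led by Apod, Cldn1 and Foxd1, held Lum at 3299, 2497 and 2152 CPM and Ogn at 62.2, 82.4 and 89.9 CPM in the same libraries. Ogn in the first of these clusters differed little between the unamputated and 28 dpa libraries (log2 ratio −0.14), beside −2.02 in fibroblast-like cells.

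A finer division of the osteoblast-like cells separated a cluster led by Chad, Igf2 and Comp, which the markers called tenocyte-like, from a cluster led by Ibsp, Bglap and Spp1. Ogn was at 2102, 1039 and 1417 CPM in the former and at 523, 337 and 246 CPM in the latter in the unamputated, 17 and 28 dpa libraries. Aspn was at 5224, 4835 and 3747 CPM against 1466, 1034 and 756 CPM, and Omd at 315, 254 and 384 CPM against 248, 199.7 and 218 CPM.

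Dcn was also found in a cluster led by keratin genes of the hair follicle. A finer cluster of 279 cells led by Krt25, S100a3 and Krt35, which was left unnamed because the keratinocyte markers were on average below the other cells, held Dcn at 894 CPM in the unamputated library, 911 at 12 dpa and 360.1 at 28 dpa. Lum in the same cells was at 26.9, 15.6 and 50.4 CPM and Bgn at 28.9, 37.8 and 37.98 CPM. In 2 finer keratinocyte-like clusters, Dcn was at 89.2 CPM in the unamputated library and 159 CPM at 28 dpa (led by Krt17, Krt15 and Lgr5) and at 37.2 and 157.9 CPM (led by Tspear, Krt14 and Krt5). In macrophage-like cells Dcn and Lum were at 8.85 and 13.1 CPM in the unamputated library and at 84.4 and 61.5 CPM at 28 dpa.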
